A study of Mus musculus with 5 samples.

Results

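The genes described here are 9 members of the matrix turnover system, the matrix metalloproteinases Mmp2, Mmp8, Mmp9, Mmp12, Mmp13 and Mmp14 and the tissue inhibitors of metalloproteinases Timp1, Timp2 and Timp3. They were taken by symbol, with earlier results of these data known, from the 32285 genes counted in single-cell suspensions of mouse kidney. The question was which cell classes were the sources of the proteases and of their inhibitors, and how those sources differed between control kidney, acute injury (AKI) and the chronic disease that follows it (CKD).

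Kidneys came from male C57BL/6 mice that were 8 to 10 weeks old. AKI was brought about with aristolochic acid I (AAI), a plant nephrotoxin taken up by the proximal tubule, injected into the peritoneum at 3 mg/kg with an interval of 3 days and sampled at week 2. CKD kidneys had the same course and were sampled at week 4, after injections had stopped. The control received vehicle and stands at week 0. There was 1 control library, 2 AKI and 2 CKD libraries, all made from kidney digested with collagenase and DNase. The labels do not say whether the replicate libraries came from separate mice, and p-values measure only the spread between these libraries. The control has no replicate, and its values carry counting intervals only.

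Matrix metalloproteinases are zinc enzymes that cleave collagens, elastin, gelatin and other matrix proteins, and most are secreted as inactive precursors. TIMPs bind the active enzymes and block them, and TIMP2 also takes part, with the membrane-bound protease MMP14, in the activation of pro-MMP2. In the kidney they act on the basement membranes of tubules and vessels and on the interstitial matrix that builds up in fibrosis.

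A total of 53625 cells was kept, with between 55486326 and 83839911 unique molecular identifiers (UMIs, each standing for 1 captured RNA molecule) per library. Cells were clustered without the 9 genes and without a list of 56 related genes of matrix turnover, and clusters were named by marker genes. Matrix genes outside that list, such as Adamts9 and Eln, were used. Macro-like cells (macrophage markers C1qa, Csf1r, Adgre1) numbered 604 in the control, 690 and 982 in AKI and 1189 and 671 in CKD. Pericyte/Fibro-like cells (Col1a1, Col1a2, Pdgfrb) numbered 120, 77, 73, 73 and 47 in the same order of libraries, and Neutro-like cells (S100a8, S100a9) 18, 48, 39, 48 and 25. CKD 1 stood apart: 46.0% of its kept cells lay in clusters that were left unnamed, against 9.93% to 10.6% in the other libraries. The control shared 132 cell barcodes with CKD 2, and the control cells of 99 of these, which had over 20 times more UMIs in CKD 2, were removed. Levels below are UMIs of a gene per 10000 UMIs of the class and are compared between classes and libraries, never between genes.

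The sources differed by gene. Classes with at least 18 cells in every library were ranked by mean level, and the first was set against the second in each library. This limit lets in Neutro-like cells, of which the control had 18. At the limit of 20 cells used for the tests, the Macro-like class came first for Mmp9 and for Mmp8. It then stood above the second class in 4 of 5 libraries for each. Mmp2, Timp1 and Timp2 were highest in Pericyte/Fibro-like cells, above the second class in 5 of 5 libraries. The same held for Timp3 in EC-like (endothelial) cells and for Mmp13 in Macro-like cells. These orders are descriptions, with no test. For 3 proteases no class led throughout. Mmp9 was higher in Macro-like than in Neutro-like cells in 2 of 5 libraries, Mmp12 was higher in Macro-like than in DC-like (dendritic) cells in 2 of 5, and Mmp14 was higher in Pericyte/Fibro-like than in Macro-like cells in 3 of 5.

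**Figure D1:**
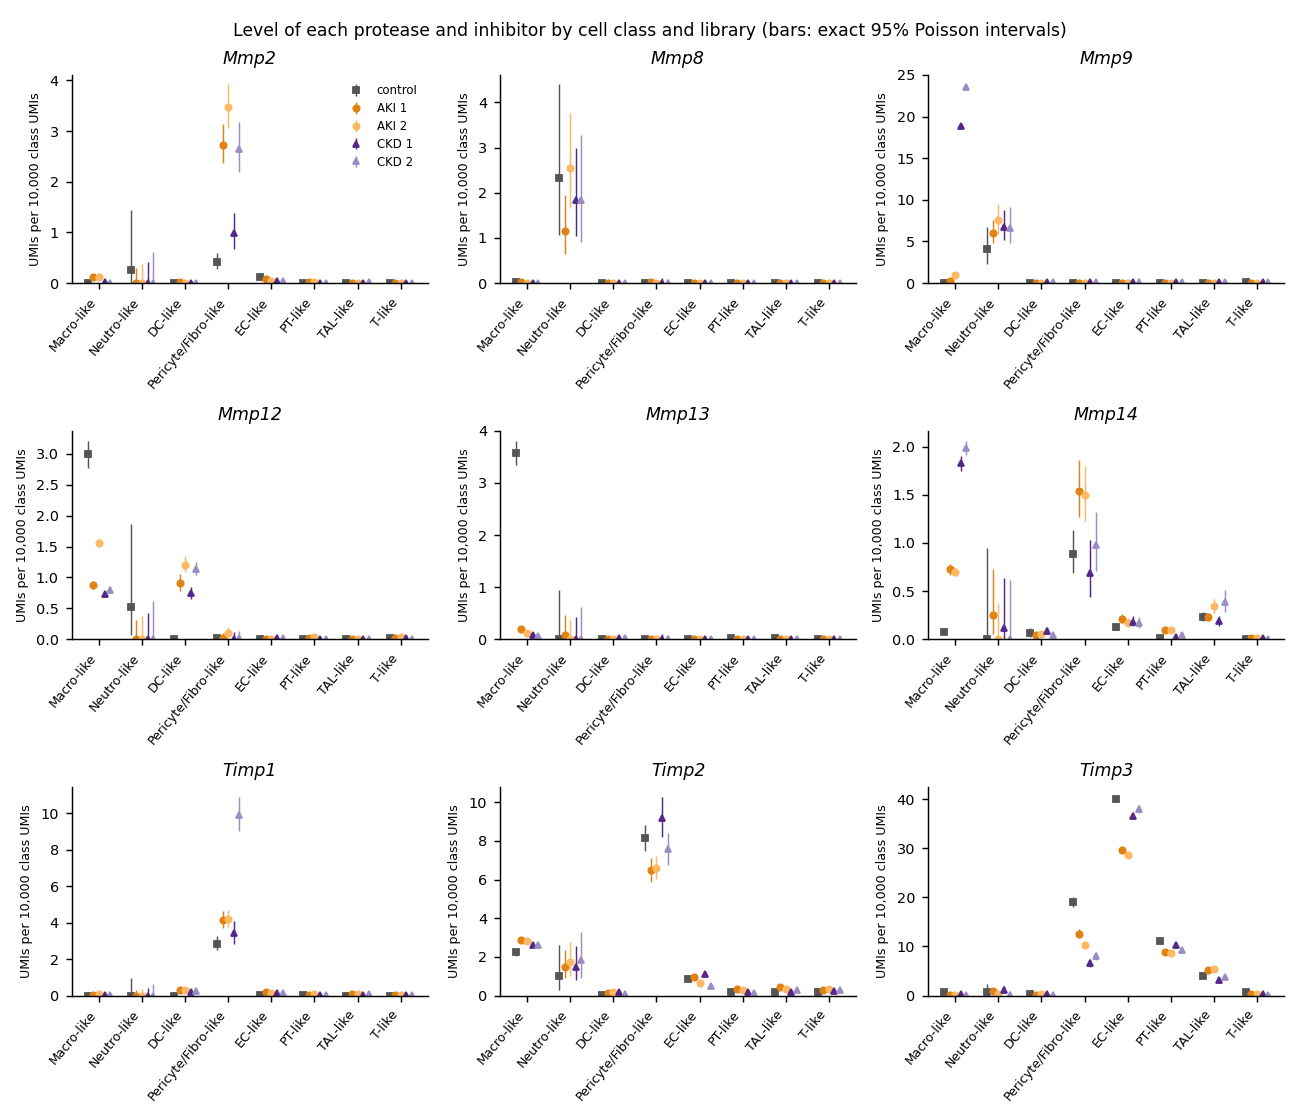
Level of each of the 9 genes (UMIs per 10000 UMIs of the class, with exact Poisson intervals) by cell class and library. The Macro-like levels of Mmp9 in CKD, 18.8 and 23.6, stand above all AKI and control values of that gene. Timp3 is highest in EC-like cells in all 5 libraries, among classes with at least 18 cells in every library.

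Weighted by cell numbers, most Mmp12 and Mmp13 RNA in every library, and most Mmp9 and Mmp14 RNA in CKD, lay in Macro-like cells. Within that class in CKD, 99.3% and 99.7% of Mmp9 and 89.2% and 89.4% of Mmp14 lay in 1 cluster. It is the Ctsk-led cluster described below, where few cells held the macrophage markers C1qa and Adgre1. The share of all Mmp9 UMIs that lay in Macro-like cells was 6.61% in the control, 33.0% and 86.4% in AKI and 81.0% and 97.3% in CKD. For Mmp14 this share was 3.84% in the control, 45.6% and 59.3% in AKI and 74.8% and 90.6% in CKD. For Mmp13 it was between 68.1% and 87.4%, and for Mmp12 between 58.4% and 86.2%. The inhibitors had no common source: Timp3 lay to between 28.9% and 47.8% in EC-like cells, and Timp1 to between 23.9% and 91.4% in Pericyte/Fibro-like cells. Timp2 lay in part in Macro-like cells and in part in stroma. These shares move with how many cells of each class the digest yielded.

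**Figure D2:**
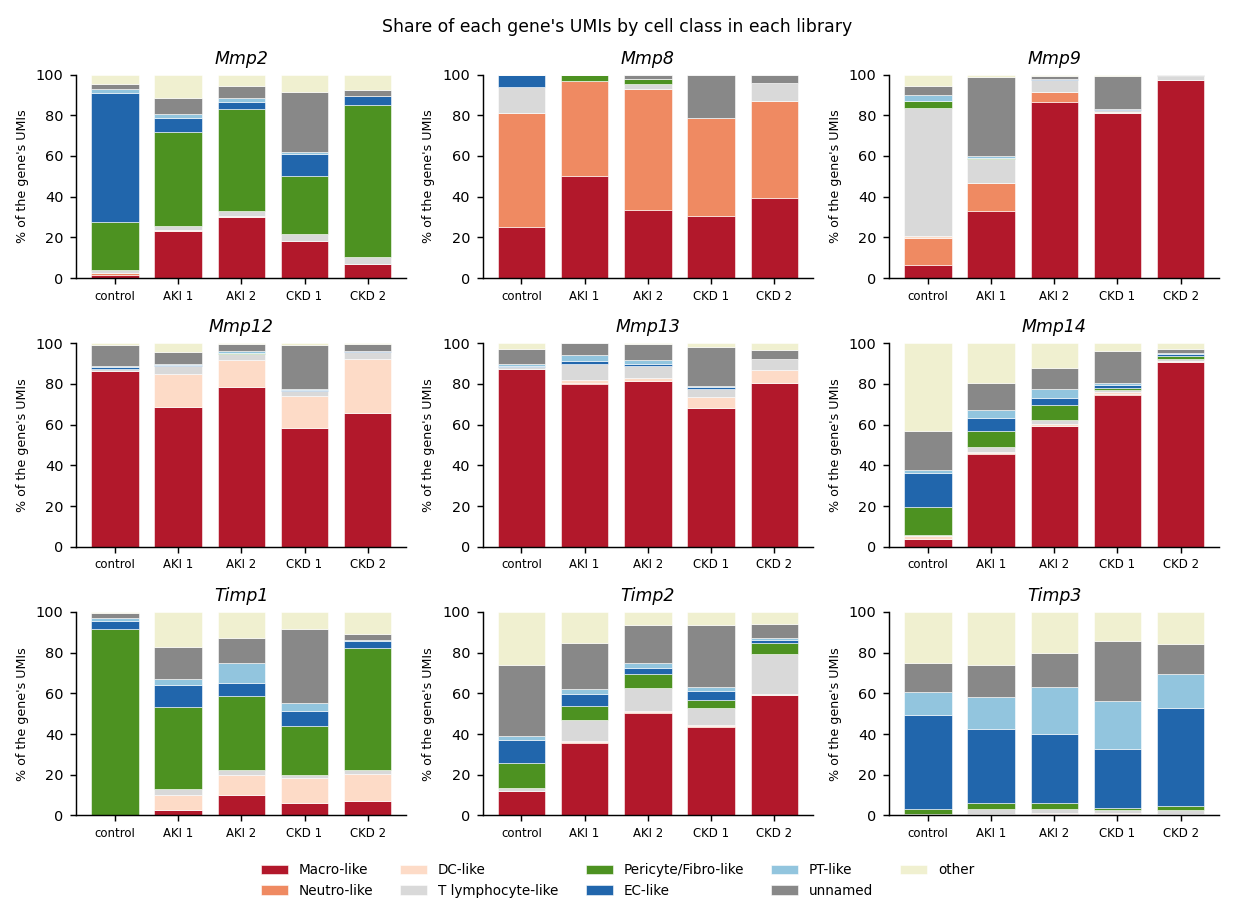
Share of each gene's UMIs (percent of all its UMIs in kept cells) by cell class, for each library. Macro-like cells hold 81.0% and 97.3% of Mmp9 in CKD, and unnamed cells hold 38.7% of it in AKI 1 and 16.1% in CKD 1.

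Mmp9, a gelatinase that cleaves denatured collagen and basement membrane collagen, was higher in the Macro-like cells of CKD than in those of AKI. Its level in Macro-like cells was 0.0322 in the control (95% exact Poisson interval 0.0139 to 0.0634), 0.209 and 0.938 in AKI, and 18.8 and 23.6 in CKD. Both CKD libraries lay above both AKI libraries, and the AKI libraries differed from each other more than the CKD libraries did in relative terms. The group means were 0.574 ± 0.516 in AKI and 21.2 ± 3.38 in CKD (SD, n = 2 each), and the fitted change was 32.9-fold, a log2 fold change of 5.04 ± 0.58 (SE; adjusted p = 0.000325, edgeR quasi-likelihood test). In this class 40.3% of all genes tested were called at an adjusted p under 0.05. Without AKI 2 the log2 fold change was 6.51, and without AKI 1 it was 4.39. Cells with at least 1 Mmp9 UMI made up 5.65% and 6.62% of Macro-like cells in AKI and 40.8% and 44.3% in CKD. After thinning cells to 1000 UMIs and leaving out shallower ones, of which there were 0 to 10 in the Macro-like class of each library, the shares were 1.43% and 2.02% in AKI and 28.9% and 27.5% in CKD, against 0.262% to 1.91% in T lymphocyte-like cells of the AKI and CKD libraries. Of the other classes thinned in this way, apart from Neutro-like cells, DCT/CNT-like (distal tubule) cells of CKD 1 had the highest share, 5.48%, where the number of cells left out ran up to 477 of 917 PT-like cells in AKI 1.

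The CKD level was carried by 1 of the 3 clusters that made up the Macro-like class. It is called the Ctsk-led cluster here, after its top gene, which encodes cathepsin K. This cluster held 1 of the 604 Macro-like cells in the control, 2.17% and 2.44% of them in AKI and 40.7% and 42.0% in CKD, while the Ccl8-led cluster held 95.9% in the control, 70.4% and 63.2% in AKI and 38.6% and 32.9% in CKD. The third cluster, led by Lyz2, held 27.4% and 34.3% in AKI and 20.7% and 25.0% in CKD. With 2 libraries against 2, an exact permutation test cannot go below p = 0.333, so these shares are given as values. The share in CKD 1 rests on the rule that left clusters of 1 library unnamed: 1 such cluster, with 1558 cells of CKD 1, had Ccl17, Acp5 and Ctsk as leading genes, and with such clusters named CKD 1 had 2778 Macro-like cells in place of 1189.

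Within the Ctsk-led cluster Mmp9 stood at 31.3 and 36.4 in the CKD libraries. A Mmp9 UMI was present in 401 of 484 cells of CKD 1 (82.9%) and in 239 of 282 cells of CKD 2 (84.8%), with a median of 10 and 57.5 Mmp9 UMIs per cell. The few cells of this cluster in AKI were uneven: 3 of 15 cells of AKI 1 held 53 UMIs, 43 of them in 1 cell, and 7 of 24 cells of AKI 2 held 1058 UMIs, 551 of them in 1 cell. In the Ccl8-led cluster the level was 0.235 and 0.228 in AKI and 0.459 and 0.228 in CKD, so that CKD 1 alone stood above the others. In the Lyz2-led cluster it was 0.00964 and 0.0453 in AKI and 0.152 and 0.127 in CKD, where the CKD values lie close to those of proximal tubule and T cells in the same libraries.

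**Figure D3:**
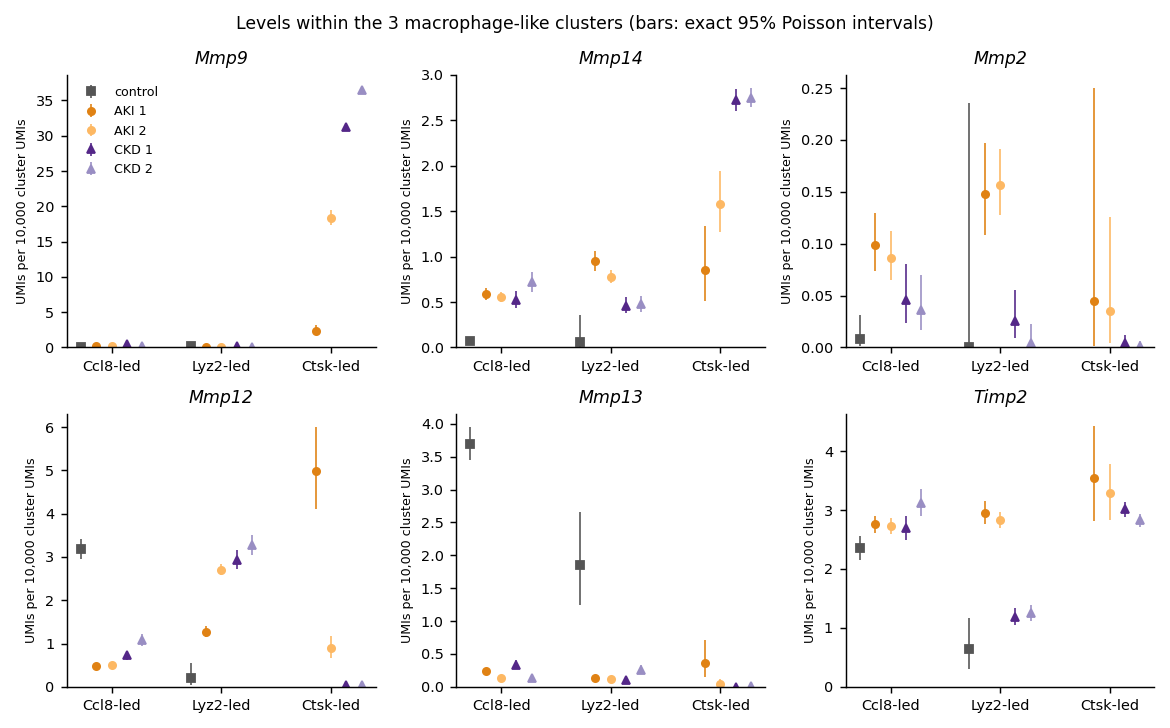
Levels of the proteases and Timp2 except Mmp8 (UMIs per 10000 UMIs of the cluster, with exact Poisson intervals) in the 3 Macro-like clusters by library. The single control cell of the Ctsk-led cluster is not drawn. Mmp9 is at 31.3 and 36.4 in the Ctsk-led cluster in CKD and below 0.46 in both others.

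The Ctsk-led cluster passed the naming rule for macrophages but in the CKD libraries held C1qa, C1qb, C1qc and Adgre1 in fewer cells than the others did. In CKD 1 and CKD 2, C1qa was present in 19.8% and 29.4% of its cells, against 89.3% and 95.5% in the Ccl8-led and 67.5% and 59.5% in the Lyz2-led cluster. Adgre1 was present in 4.55% and 11.7% of its cells and Csf1r in 72.1% and 95.4%, whereas Acp5, which encodes tartrate-resistant acid phosphatase, was present in 97.9% and 96.8%. Its leading genes, Ctsk, Mmp9, Acp5 and Slc9b2, are also known from bone-resorbing osteoclasts, and no other name was given to it. The change of each of the 6 called members in Macro-like cells is also given without it, a comparison chosen after the data were seen. The interaction tests used all 3 clusters. When it was left out, the log2 fold change of Mmp9 from AKI to CKD was 0.65 (adjusted p = 0.156, edgeR quasi-likelihood test).

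Neutrophils, which store Mmp9 protein in granules, had a level with no clear order between the groups. Neutro-like cells stood at 4.12 in the control, 6.07 and 7.56 in AKI and 6.78 and 6.67 in CKD, and the AKI and CKD values overlapped. The log2 fold change was -0.06 ± 0.24 (adjusted p = 0.993, edgeR), and -1.32 (adjusted p = 0.0502) with doublets kept. At 18 to 48 cells per library these values rest on 16 to 74 UMIs. Neutro-like cells held 13.2% of the control's Mmp9 UMIs and 13.5% and 5.2% in AKI, and 0.205% and 0.117% in CKD.

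Mmp9 also had a higher count in CKD in classes that are not known for it, at a low level. PT-like (proximal tubule) cells had 0.00868 and 0.00544 in AKI and 0.152 and 0.133 in CKD, T lymphocyte-like cells 0.0237 and 0.0321 in AKI and 0.154 and 0.131 in CKD, and EC-like cells 0.0025 and 0.00602 in AKI and 0.174 and 0.144 in CKD. The median over the classes outside the myeloid lineage was 0.153 in CKD 1 (0.0477 to 0.358, highest in NK-like cells) and 0.132 in CKD 2 (0.0742 to 0.2). Ctsk was counted there too, at a ratio that varied by class. The number of Ctsk UMIs per Mmp9 UMI in CKD 1 and CKD 2 was 1.77 and 1.42 in Macro-like cells. It was 1.63 and 1.08 in T lymphocyte-like, 1.48 and 1.20 in PT-like, 1.63 and 0.871 in EC-like and 1.14 and 0.893 in CD IC-like cells. Neutro-like cells had 0.0678 and 0.025, and Pericyte/Fibro-like cells of CKD 2 held 50 Ctsk and 4 Mmp9 UMIs. Free RNA in the droplets was not measured and its part was not tested, and the calls of Mmp9 and Ctsk in classes other than Macro-like cells are not read as expression there. Control T lymphocyte-like cells were an exception at 0.162, with 76 UMIs in 60 of 1191 cells, against a median of 0.00138 over the non-myeloid classes of that library.

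Mmp2, the other gelatinase, belonged to stromal cells. Its level in Pericyte/Fibro-like cells was 0.410 in the control (interval 0.274 to 0.588), 2.73 and 3.47 in AKI and 0.988 and 2.65 in CKD. The markers of this class moved too: Pdgfrb was 3.18 in the control, 1.99 and 2.28 in AKI and 1.5 and 1.23 in CKD, the smooth muscle gene Myh11 was 16.6, then 4.17 and 2.83, then 11.2 and 5.09, and the fibroblast gene Dcn was 51.9, then 18.6 and 38.4, then 63.4 and 80.7. Their part in the stromal values of Mmp2, Mmp14 and the Timps was not tested. All AKI and CKD values of Mmp2 lay above the interval of the single control, and both CKD values lay below the AKI values, CKD 1 far below CKD 2. The change from AKI to CKD, -0.65 ± 0.41 on the log2 scale, did not pass the test (adjusted p = 0.739, edgeR). Without CKD 2 it was -1.59 and passed (adjusted p = 0.000163), so it depended on which CKD library was used. In the control, where stromal Mmp2 was low, 63.7% of its UMIs lay in EC-like cells, at 0.124 against 0.0324 to 0.0776 in the other libraries.

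A second, smaller Mmp2 source appeared in macrophages in AKI. Macro-like cells had 0.00804 in the control, 0.115 and 0.117 in AKI and 0.017 and 0.00783 in CKD. The AKI libraries were close to each other and lay above the other 3 libraries, and T lymphocyte-like cells had at most 0.00502 in any library. The log2 fold change from AKI to CKD was -3.40 ± 0.31 (adjusted p = 0.000108, edgeR), a 10.6-fold lower level, and -2.20 ± 0.28 (adjusted p = 0.00764) without the Ctsk-led cluster. In the Lyz2-led cluster it was 0.148 and 0.157 in AKI, 0.0254 and 0.00398 in CKD and 0 of 156581 UMIs in the control, and in the Ccl8-led cluster 0.0984 and 0.0865 in AKI and 0.0459 and 0.0366 in CKD. The change in macrophages differed from that in Pericyte/Fibro-like cells by -2.68 ± 0.44 on the log2 scale (adjusted p = 8.33e-05, edgeR with the interaction of group and class and the library as a block, a test chosen after the data were seen). In that test 5.23% of all genes were called.

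Mmp14, the membrane-bound protease that activates pro-MMP2 and cleaves fibrillar collagen, was higher in Macro-like cells at each later time. Macro-like cells had 0.0724 in the control (interval 0.0429 to 0.114), 0.726 and 0.703 in AKI and 1.83 and 1.99 in CKD, and the groups did not overlap. The change from AKI to CKD was 2.39-fold, a log2 fold change of 1.26 ± 0.10 (adjusted p = 7.63e-05, edgeR). The share of Macro-like cells with a UMI did not follow this order, with 2.65% in the control, 43.0% and 44.7% in AKI and 38.9% and 57.4% in CKD. Thinned to 1000 UMIs per cell, the shares were 0.552%, then 5.87% and 5.97%, then 10.2% and 12.2%, and T lymphocyte-like cells had at most 0.206%.

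Where this RNA lay changed between the phases. In AKI, Mmp14 was at 0.585 and 0.552 in the Ccl8-led cluster and 0.951 and 0.776 in the Lyz2-led cluster. In CKD the Ccl8-led cluster had 0.524 and 0.715 and the Lyz2-led cluster 0.456 and 0.473, and the Ctsk-led cluster had 2.72 and 2.75. Without the Ctsk-led cluster the log2 fold change was -0.47 (adjusted p = 0.0908, edgeR), and no rise passed the test in the other macrophages. Within the Ctsk-led cluster in CKD, Mmp14 was detected in 73.3% and 94.6% of the cells with a Mmp9 UMI and in 37.3% and 39.5% of those without, with no allowance for the depth of each cell.

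Outside the Macro-like class Mmp14 fell from AKI to CKD or did not pass the test. PT-like cells had 0.0141 in the control, 0.0972 and 0.0925 in AKI and 0.0289 and 0.0453 in CKD, a log2 fold change of -1.38 ± 0.30 (adjusted p = 0.0292, edgeR). The PT-like cells differed in depth between the groups, with a median of 954 and 1161 UMIs per cell in AKI and 4109 and 4191 in CKD, and the part of depth in the calls of Mmp14 and Timp2 in this class was not tested. T lymphocyte-like cells had at most 0.0159. The call in PT-like cells was kept by 7 of 14 alternatives and was lost with DESeq2 (adjusted p = 0.171), without CKD 1 (0.21) and without CKD 2 (0.0879), and the adjusted p ranged from 0.000251 to 0.357. Pericyte/Fibro-like cells had 0.890 in the control, 1.54 and 1.5 in AKI and 0.688 and 0.981 in CKD, a log2 fold change of -0.75 ± 0.28 (adjusted p = 0.52). The change in Macro-like cells exceeded that in PT-like cells by 2.63 ± 0.28 (adjusted p = 9.59e-06) and that in Pericyte/Fibro-like cells by 2.02 ± 0.32 (adjusted p = 4.7e-05) on the log2 scale, in the same edgeR interaction test. Of all genes 15.7% were called in the former. Both differences used all 3 clusters. They were not tested without the Ctsk-led cluster, where the Macro-like change of Mmp14 was itself downward and not called.

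**Figure D4:**
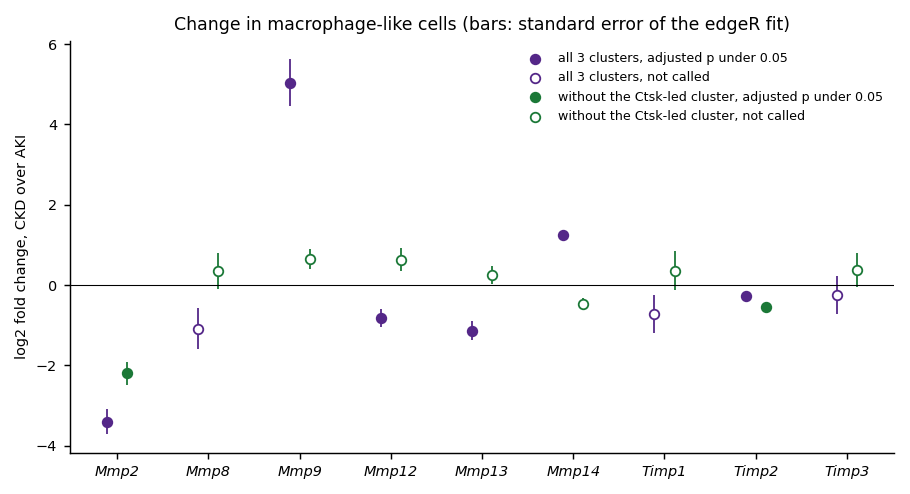
Log2 fold change from AKI to CKD of the 9 genes in Macro-like cells with all 3 clusters and with the Ctsk-led cluster left out, with standard errors, filled where the adjusted p is under 0.05. Mmp9 is at 5.04 and 0.65, Mmp14 at 1.26 and -0.47, and Mmp2 at -3.40 and -2.20.

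As levels of the Macro-like class, Mmp12 and Mmp13 were highest in the control. Within clusters this did not hold for Mmp12, which stood at 2.93 and 3.27 in the Lyz2-led cluster of CKD and at 3.19 in the control's Ccl8-led cluster. Mmp12 encodes macrophage elastase and Mmp13 a collagenase of fibrillar collagen. Mmp13 in Macro-like cells was 3.57 in the control (interval 3.34 to 3.81), 0.2 and 0.127 in AKI and 0.0913 and 0.0726 in CKD. The control value lay above all 4 others, and the CKD values lay below the AKI values. A Mmp13 UMI was seen in 51.3% of control Macro-like cells and in 3.95% to 7.54% of those of the other libraries, although control cells were the shallowest with a median of 3820 UMIs. After thinning to 1000 UMIs these shares were 25.2% and 0.769% to 1.58%, and T lymphocyte-like cells had a UMI in at most 0.504% of cells before thinning.

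From AKI to CKD the log2 fold change of Mmp13 was -1.14 ± 0.24 (adjusted p = 0.00659, edgeR). Without AKI 1 it was -0.75 with an adjusted p of 0.0532, while 13 of 14 alternatives kept the call. It was 0.25 (adjusted p = 0.548) when the Ctsk-led cluster was left out, whose cells had 0.003 and 0.006 in CKD. In the Ccl8-led cluster, which made up 95.9% of the control's Macro-like cells, Mmp13 was 3.70 in the control, 0.233 and 0.14 in AKI and 0.336 and 0.134 in CKD.

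Mmp12 in Macro-like cells was 2.99 in the control (interval 2.78 to 3.21), 0.878 and 1.55 in AKI and 0.733 and 0.801 in CKD. Its log2 fold change from AKI to CKD was -0.82 ± 0.22 (adjusted p = 0.0181, edgeR), but the call was lost without AKI 2 (-0.35, adjusted p = 0.106), with DESeq2 (adjusted p = 0.098) and with the clusters of 1 library named (adjusted p = 0.0564), and the adjusted p ranged from 2.71e-10 to 0.106 over the alternatives. It reversed to 0.63 (adjusted p = 0.24) without the Ctsk-led cluster. Mmp12 also changed cluster: in the Ccl8-led cluster it was 3.19 in the control, 0.469 and 0.492 in AKI and 0.723 and 1.08 in CKD, and in the Lyz2-led cluster 0.192 in the control, from 3 UMIs in 24 cells, 1.27 and 2.71 in AKI and 2.93 and 3.27 in CKD. The Ctsk-led cluster had 4.99 and 0.903 in AKI, from 2 of 15 and 5 of 24 cells with a Mmp12 UMI, and 0.0338 and 0.0408 in CKD.

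Dendritic cells of the AKI and CKD libraries also held Mmp12. DC-like cells held 1 Mmp12 UMI in the control, a level of 0.0077, and stood at 0.916 and 1.21 in AKI and 0.745 and 1.14 in CKD. T lymphocyte-like cells had at most 0.0294. CD IC-like (collecting duct intercalated) cells of AKI 1 stood at 0.0807, with a Mmp12 UMI in 8.99% of cells before and 5.18% after thinning, against 9.22% and 3.68% of the DC-like cells of that library. The AKI and CKD values of DC-like cells overlapped, with a log2 fold change of -0.24 ± 0.20 (adjusted p = 0.776, edgeR). With no correction by library, where the class shrank to 50 to 101 cells per AKI or CKD library and had Xcr1 among its leading genes, it was 5.88 (adjusted p = 0.000136). The make-up of the DC-like class differed between the control and the other libraries. Xcr1 and Clec9a, markers of type 1 dendritic cells, were present in 57.6% and 51.7% of control cells and in 8.18% to 18.4% and 10.9% to 25.9% of the others, and Cd209a, a marker of other dendritic cells, in 29.7% against 57.9% to 65.1%, so that the control value comes from a different mix of cells. In control Ccl8-led macrophages, 182 of 579 cells had a Mmp12 UMI, 305 had a Mmp13 UMI and 115 had both. Mmp13 was found in 63.2% of the cells with Mmp12 and in 47.9% of the rest, with no allowance for the depth of each cell.

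Mmp12, Mmp13 and Mmp8 lie on chromosome 9 within the same gene cluster, at chr9:7344397-7360461, chr9:7272514-7283333 and chr9:7558429-7568486 in the RefSeq annotation of GRCm38.p6. Mmp9 lies at chr2:164940326-164955850, Mmp2 at chr8:92827290-92853421 and Mmp14 at chr14:54431598-54442456. Timp1 lies at chrX:20870166-20874737, Timp2 at chr11:118301061-118355411 and Timp3 at chr10:86300412-86349505. The submitters' notes name another build for the counts, so the positions serve orientation only. Since Mmp12 and Mmp13 were both high in control macrophages, the 250 bases before their RefSeq starts are shown, read on the plus strand of GRCm38.p6. RefSeq gives Mmp12 a pair of starts. Capitals mark TGANTCA, the motif bound by AP-1 factors, searched on both strands.
Mmp13, chr9:7272264-7272513: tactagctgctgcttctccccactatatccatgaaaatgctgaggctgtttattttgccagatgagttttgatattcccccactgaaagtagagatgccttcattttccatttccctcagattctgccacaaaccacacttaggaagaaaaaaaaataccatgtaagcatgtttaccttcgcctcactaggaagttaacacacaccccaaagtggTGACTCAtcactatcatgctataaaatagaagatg
Mmp12, first start, chr9:7344147-7344396: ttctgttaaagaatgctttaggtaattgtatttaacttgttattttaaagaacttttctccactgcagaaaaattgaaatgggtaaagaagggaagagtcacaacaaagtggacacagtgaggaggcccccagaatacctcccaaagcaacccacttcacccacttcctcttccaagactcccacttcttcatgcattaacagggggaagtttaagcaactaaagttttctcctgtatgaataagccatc
Mmp12, second start, chr9:7347124-7347373: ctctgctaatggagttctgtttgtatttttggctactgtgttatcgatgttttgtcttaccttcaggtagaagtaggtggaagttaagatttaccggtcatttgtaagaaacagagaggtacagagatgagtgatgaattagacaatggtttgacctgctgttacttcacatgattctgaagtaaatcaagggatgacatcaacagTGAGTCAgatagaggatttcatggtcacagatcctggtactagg

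The motif stood as TGACTCA 35 bases before the start of Mmp13 and as TGAGTCA 44 bases before the second start of Mmp12. It was in none of the windows of Mmp8, Mmp14, Timp1, Timp2 and Timp3, nor in that of the first Mmp12 start. Of 32851 promoter windows of the same length, 6.75% held it. The Mmp13 window also holds TATAAA, which 7.59% of windows do. These are matches of letters, and no binding was measured.

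Mmp8, the neutrophil collagenase, was the rarest of the genes, with 144 UMIs in all kept cells. Neutro-like cells had 2.32 in the control, 1.16 and 2.56 in AKI and 1.84 and 1.84 in CKD, from 9 to 25 UMIs per library. AKI and CKD overlapped, and the log2 fold change was -0.04 ± 0.47 (adjusted p = 0.994, edgeR). Neutro-like cells led in 5 of 5 libraries, and DC-like, PT-like and TAL-like (thick ascending limb) cells held none.

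Among the inhibitors, Timp1, which is induced in injured and fibrotic tissue, was stromal. Pericyte/Fibro-like cells had 2.85 in the control (interval 2.47 to 3.28), 4.16 and 4.20 in AKI and 3.41 and 9.92 in CKD. All 4 AAI libraries lay above the control's interval, and the CKD libraries lay on either side of the AKI values. The log2 fold change from AKI to CKD was 0.79 ± 0.44 (adjusted p = 0.691, edgeR), and without CKD 1 it was 1.4 (adjusted p = 9.27e-06), while without CKD 2 it was -0.23 (adjusted p = 0.858).

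Timp1 had further, weaker sources after injury. EC-like cells had 0.0141 in the control, 0.203 and 0.163 in AKI and 0.128 and 0.116 in CKD. DC-like cells had none in the control, 0.281 and 0.279 in AKI and 0.173 and 0.241 in CKD, with the different mix of the control's DC-like cells given above. Neither passed the test from AKI to CKD. CD IC-like cells, which were not tested, had 0.000842 in the control, 0.0894 and 0.206 in AKI and 0.0653 and 0.265 in CKD. In Macro-like cells Timp1 stayed at or below 0.0663, and its change from AKI to CKD was lower than that in Pericyte/Fibro-like cells by -1.35 ± 0.41 on the log2 scale (adjusted p = 0.0475, edgeR interaction test). The stromal change ran from -0.23 to 1.4 over the alternatives, and the Macro-like change from -1.22 to 0.31. Whether the difference holds without 1 library or without the Ctsk-led cluster was not tested. Timp1 in the Ccl8-led cluster was 0.00965 and 0.0173 in AKI and 0.0497 and 0.0447 in CKD. In the Lyz2-led cluster it was 0.045 and 0.123, then 0.0592 and 0.111.

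Timp2, the inhibitor that also serves pro-MMP2 activation, was present in stroma and macrophages in all libraries. Pericyte/Fibro-like cells had 8.14 in the control, 6.47 and 6.60 in AKI and 9.19 and 7.55 in CKD, a log2 fold change of 0.45 ± 0.25 (adjusted p = 0.688, edgeR). Macro-like cells had 2.24 in the control, 2.85 and 2.80 in AKI and 2.59 and 2.59 in CKD. The fall from AKI to CKD was small, -0.28 ± 0.09 (adjusted p = 0.0424), and 5 of 14 alternatives kept the call, with adjusted p between 0.0325 and 0.265 over all 14. It was lost without each of the 4 libraries in turn, with adjusted p between 0.0569 and 0.238. Without the Ctsk-led cluster it was -0.55 ± 0.11 (adjusted p = 0.0285). In the Lyz2-led cluster Timp2 was 0.639 in the control, 2.95 and 2.83 in AKI and 1.19 and 1.25 in CKD, while in the Ccl8-led cluster it was 2.35, then 2.76 and 2.73, then 2.69 and 3.12.

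PT-like cells had Timp2 at 0.323 and 0.284 in AKI and 0.183 and 0.116 in CKD, a log2 fold change of -0.86 ± 0.20 (adjusted p = 0.0385, edgeR), beside 0.263 and 0.313, then 0.253 and 0.279, in T lymphocyte-like cells. DESeq2 gave an adjusted p of 0.105 for it, without CKD 2 it was 0.201, and with doublets kept the change was -0.01. Over the alternatives the adjusted p ranged from 0.000231 to 0.991.

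Timp3, the inhibitor that binds to the matrix itself, was vascular and tubular. EC-like cells had 40.0 in the control (interval 39.5 to 40.5), 29.7 and 28.7 in AKI and 36.6 and 38.0 in CKD. The AKI values were the lowest, and the CKD values lay between them and the control. The log2 fold change from AKI to CKD was 0.37 ± 0.15 (adjusted p = 1, edgeR). PT-like cells had 11.2 in the control, 8.88 and 8.72 in AKI and 10.2 and 9.33 in CKD, again lowest in AKI, with a log2 fold change of 0.23 ± 0.15 (adjusted p = 0.443). Pericyte/Fibro-like cells had 19.1 in the control, 12.6 and 10.4 in AKI and 6.58 and 8.05 in CKD, lower at each later time, with a log2 fold change from AKI to CKD of -0.55 ± 0.27 (adjusted p = 0.648).

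Counted over the classes tested by edgeR at an adjusted p under 0.05, 6 of the 9 genes were called between AKI and CKD in Macro-like cells, Mmp9 and Mmp14 upward and Mmp2, Mmp12, Mmp13 and Timp2 downward. In that class 40.3% of all genes were called, so much of the class's RNA differed, and the share of members is read against that. Without the Ctsk-led cluster, 2 of 9 were called, Mmp2 and Timp2, both downward, where 7.86% of all genes were. In PT-like cells 3 of 5 tested genes were called, beside 4.02% of all genes, and 1 of these is Mmp9, at 0.152 and 0.133 in CKD. It was seen in 0.545% and 0.455% of PT-like cells in AKI and in 10.0% and 10.2% in CKD. Its counts for the filter thus lay mostly in CKD, and this call is not read as expression in PT-like cells. Mmp9 was the only gene called in DC-like cells (1 of 6 tested, 0.185% of all genes), T lymphocyte-like cells (1 of 7, 14% of all genes) and TAL-like cells (1 of 5, 0.0553% of all genes), at the low level described above. In DC-like and TAL-like cells it was seen in none of the cells of AKI 2 and in 0.709% and 0.556% of those of AKI 1, so that it passed the filter on low counts through CKD. These calls were lost without any single library in DC-like cells, without AKI 1 or AKI 2 in T lymphocyte-like cells and without AKI 2 in TAL-like cells. In TAL-like cells the call was kept by 7 of 13 alternatives, with a log2 fold change from 0.27 to 7.62. Mmp9 in EC-like cells missed the threshold (adjusted p = 0.067) and passed it in 8 of 14 alternatives.

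No gene was called in 4 tests. The edgeR test called none of 6 members in EC-like cells, none of 5 in Pericyte/Fibro-like cells, none of 3 in Neutro-like cells and none of 9 over all kept cells, and 0% of all genes in each. At an unadjusted p under 0.05 it gave 518, 594, 66 and 2516 genes, and DESeq2 called 6, 23, 0 and 616 genes. Over all kept cells some of 11 alternatives did call members: Mmp9 in 3, Mmp2 and Mmp14 in 2 each, with DESeq2 and without CKD 1 among them, and Timp3 in 1, without CKD 1. Fewer cells of a class and less RNA per cell cannot be told apart in the sums over all kept cells.

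The wider list of 56 genes of matrix turnover gave the setting of these changes in Macro-like cells. Of 33 tested, 21 were called, beside 40.3% of all genes, 5 higher and 16 lower in CKD, with a median log2 fold change of -0.79 against -0.01 over all genes. Without the Ctsk-led cluster 11 of 29 were called, beside 7.86% of all genes, 3 higher and 8 lower. With all 3 clusters, the 6 genes of the list of cathepsins and cystatin C were all called, 1 higher and 5 lower, as were 6 of 7 ADAM proteases, 1 higher and 5 lower, and 2 of 7 matrix proteins, both lower. These counts were 6 of 6, 3 of 7 and 1 of 4 without the Ctsk-led cluster.

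Among the cathepsins Ctsk rose, from 0.0317 and 1.09 in AKI to 33.3 and 33.5 in CKD (log2 fold change 5.72 ± 1.07, adjusted p = 0.00375, edgeR). Serpine2, an inhibitor of plasminogen activators, rose by 1.76 ± 0.31 (adjusted p = 0.00276), and lost its call without the Ctsk-led cluster (1.06, adjusted p = 0.189). Itgb3, an integrin subunit of cell-matrix adhesion, was at 0 and 0.0122 in AKI and 0.0582 and 0.0648 in CKD, a log2 fold change of 2.96 ± 0.66 (adjusted p = 0.00876). It did not pass the filter on low counts without the Ctsk-led cluster, so it was tested only through cells that lay mostly in CKD. Ctsk without that cluster was at 4.42 (adjusted p = 0.0186), but at 0.614 and 0.125 in CKD, the latter near its level in T lymphocyte-like and PT-like cells. In the Ccl8-led cluster Ctsk was 0.967 in CKD 1 and 0.134 in CKD 2, with a UMI in 20.7% and 12.7% of cells. The part of free RNA in this call was not tested, and the call is not read either way. Fn1, which encodes fibronectin, fell from 2.49 and 2.63 to 0.309 and 0.325, a log2 fold change of -3.17 ± 0.10 (adjusted p = 7.27e-06), and was also lower without the Ctsk-led cluster (-1.79, adjusted p = 0.00108). The metalloprotease gene Adam19 fell by 2.07 ± 0.24 (adjusted p = 0.000325).

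In PT-like cells 10 of 32 tested genes of the list were called, beside 4.02% of all genes, 2 higher and 8 lower in CKD. Among those with the largest changes were Ctsk (4.61), Adamts5 (-2.05), Lcn2 (-1.59), a binding partner of MMP9 and a marker of tubular injury, and Ctss (-1.54), all log2 fold changes. T lymphocyte-like cells had 4 of 39 called, a share no higher than the 14% of all genes, with Ctsk (5.89) higher and Mmp7 (-2.99), Adamts5 (-2.63) and Fn1 (-1.68) lower. None was called by edgeR among 28 in DC-like, 36 in EC-like, 36 in Pericyte/Fibro-like, 28 in TAL-like and 10 in Neutro-like cells, or among 51 over all kept cells.

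Over 73 sums of a class in a library, the genes most like each member were found by Pearson's r of log2 levels, and the sums share libraries, so r is a description. Mmp2 was most like Lox, Colec12 and Frzb (r = 0.963, 0.963 and 0.962), and Timp1 most like Nnmt, Cyp1b1 and Serping1 (0.929, 0.925 and 0.924). Timp3 was most like Col4a1, Wwtr1 and Amotl2 (0.928, 0.927 and 0.926), and Timp2 most like Lrp1, Scarb2 and Rnase4 (0.780, 0.767 and 0.742). Of the macrophage proteases, Mmp13 was most like Lilra5, Bend6 and Gm16287 (0.940, 0.907 and 0.878) and Mmp12 most like Mgl2, Clec4b1 and Dpys (0.927, 0.904 and 0.895). Mmp9 was most like Chil3, Clec4e and Acod1 (0.826, 0.804 and 0.789), and Mmp14 most like Fblim1, Steap3 and Cxcl14 (0.814, 0.805 and 0.790).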

How the data were processed

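Single-cell RNA of kidney suspensions was sequenced in 5 droplet libraries. The authors deposited UMI counts, whole numbers for each gene in each barcode, from Cell Ranger and STAR, not normalized. The submitters' notes name Cell Ranger 7.2.0 and GRCm39, while matrix headers of AKI and CKD libraries name version 5.0.0 and the control's gene list names mm10, so counts were joined by gene identifier. Total UMIs per library ran from 90028670 to 121316769 in 10873 to 22034 barcodes.

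Cells with over 30% of UMIs from mitochondrial genes or under 200 genes were dropped. Doublets were removed by a neighbour score at 0.8% per 1000 cells, and no correction for free RNA was made. Cells whose barcode had over 20 times more UMIs in another library were dropped. Clusters came from 3000 variable genes, 40 principal components corrected for library by the Harmony method, written for this work, 15 neighbours and Leiden at resolution 1.5 (leidenalg 0.10.2, Python 3.11.15), giving 55 clusters. Clusters over 90% from 1 library stayed unnamed. No cluster was named for monocytes. That a cluster needed Havcr1 in 10% of its cells to be called injured tubule was settled after the clusters were seen.

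UMIs were summed per class and library and tested in edgeR 4.0.16 (quasi-likelihood, TMM, filterByExpr, Benjamini-Hochberg over all genes tested in a class, threshold 0.05, R 4.3.3) in 8 of the classes with at least 20 cells in each AKI and CKD library (Macro-, Neutro-, DC-, Pericyte/Fibro-, EC-, PT-, TAL- and T lymphocyte-like). The B lymphocyte-, NK-, DCT/CNT- and collecting duct-like classes were not tested. DESeq2 1.42.0 was an alternative. Others were another scaling (median-of-ratios size factors), no filter on low counts, a replicate block, Leiden resolution 1.0, no correction by library, doublets kept, a 15% mitochondrial limit, cells thinned to 1000 UMIs, barcode-sharing cells kept and each library left out. The tests were checked on simulated counts. Intervals are exact Poisson or binomial at 95% and cover counting error only. Members reaching 20 UMIs in a class were described, with at most 5 genes of the wider list per class (1 of them is not reported here), and for likeness the 3 genes with the highest r on log2(level + 0.1) among genes with at least 200 UMIs. Members and lists were chosen with earlier results of these data known. RefSeq's GRCm38.p6 table gave promoters for 7 of the 9 genes.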

Additional observations from a re-analysis of the deposited data

Results flagged for a closer look

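The change of Mmp14 from AKI to CKD differed between cell classes in the edgeR interaction test, by 2.63 on the log2 scale between Macro-like and PT-like cells and by 2.02 between Macro-like and Pericyte/Fibro-like cells. The change of Mmp2 differed by -2.68 and that of Timp1 by -1.35 between Macro-like and Pericyte/Fibro-like cells. These tests were chosen after the data were seen, and each change is given in the report. The other comparisons of the edgeR interaction test did not pass. Among them were Mmp9 (0.61 ± 0.70, adjusted p = 0.634) and Timp1 (1.16 ± 0.52, adjusted p = 0.154), both Macro-like against PT-like cells. No difference between classes, that of Timp1 included, was tested without the Ctsk-led cluster or without 1 library. Without that cluster the change of Mmp14 in Macro-like cells was downward and not called.

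Mmp9 was also found in cells that no comparison of a named class uses. The 7505 unnamed cells of CKD 1 held 4622 Mmp9 UMIs in 1571 cells, a level of 2.17 UMIs per 10000, where the control's 895 unnamed cells held 5 UMIs. They include a cluster with 1558 CKD 1 cells whose leading genes include Ccl17, Acp5 and Ctsk.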

How the results depend on the processing

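In Macro-like cells, leaving out the Ctsk-led cluster took Mmp9 to 0.65 and reversed Mmp12 (0.63), Mmp13 (0.25) and Mmp14 (-0.47). All values are log2 fold changes from AKI to CKD. Mmp8, Timp1 and Timp3, at -1.09, -0.72 and -0.24 with that cluster kept, reversed as well. The median over the 9 members without the cluster was 0.36, and Mmp8, Timp1 and Timp3 lay at or above it. Mmp8, Timp1 and Timp3 were called neither with the cluster nor without it. Naming the clusters of 1 library gave -0.94 for Mmp12 and DESeq2 gave -0.81, neither past the threshold. Timp2 lost its call with doublets kept (-0.32), no correction by library (-0.40), clusters of 1 library named (-0.41), no filter (-0.27) and the replicate block (-0.28, adjusted p = 0.0603). Leaving out 1 library at a time gave -1.13 to -0.35 for Mmp12, -1.44 to -0.75 for Mmp13 and -0.31 to -0.22 for Timp2. In DC-like cells Mmp12 reversed to 5.88 (adjusted p = 0.000136) with no correction by library. In Neutro-like cells Mmp9 was at -1.32 (adjusted p = 0.0502) with doublets kept.

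The edgeR test called 17 genes in DC-like, 4976 in Macro-like, 487 in PT-like, 1917 in T lymphocyte-like and 6 in TAL-like cells, and 0 in EC-like, Neutro-like and Pericyte/Fibro-like cells and over all kept cells. Counts beyond 1.5 times of these follow. DESeq2 called 46 in DC-like, 6 in EC-like, 299 in PT-like, 23 in Pericyte/Fibro-like and 19 in TAL-like cells and 616 over all kept cells. With no filter on low counts there were 240 in DC-like, 143 in EC-like, 7 in Neutro-like, 1135 in PT-like, 126 in Pericyte/Fibro-like and 384 in TAL-like cells and 21 over all kept cells. The replicate block gave 42 in DC-like, 50 in EC-like, 918 in PT-like, 2 in Pericyte/Fibro-like and 104 in TAL-like cells and 3 over all kept cells. Libraries of the same number share only that number, with correlations of their deviations from -0.00137 to 0.256 by class. Keeping doublets gave 78 in DC-like, 24 in EC-like, 120 in Neutro-like, 125 in PT-like and 29 in Pericyte/Fibro-like cells. No correction by library gave 154 in DC-like, 3084 in Macro-like, 191 in PT-like and 1 in TAL-like cells, and barcode-sharing cells kept gave 37 in DC-like, 203 in PT-like, 1 in Pericyte/Fibro-like and 1 in TAL-like cells. At most 15% mitochondrial UMIs gave 28 in DC-like, 1 in EC-like and 5 in Pericyte/Fibro-like cells, Leiden resolution 1.0 gave 10 in DC-like and 2 in TAL-like cells, and clusters of 1 library named gave 8 in PT-like and 1 in TAL-like cells. Without the Ctsk-led cluster 879 were called in Macro-like cells. Leaving out 1 library at a time gave 0 to 8 in DC-like, 1 to 50 in EC-like, 3157 to 5514 in Macro-like, 0 to 31 in Neutro-like, 43 to 769 in PT-like, 75 to 319 in Pericyte/Fibro-like, 0 to 4687 in T lymphocyte-like and 13 to 656 in TAL-like cells and 5 to 4774 over all kept cells.

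The causes of these differences were not tested. The sums rest on 25 to 48 Neutro-like and 47 to 77 Pericyte/Fibro-like cells per AKI or CKD library.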

Other observations

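In AKI 1, 193 of the 540 Mmp9 UMIs of the library lay in 1 unnamed cell, and 38.7% lay in unnamed cells as a whole. In the control, 62.8% of its 121 Mmp9 UMIs lay in T lymphocyte-like cells, of which 60 of 1191 had a UMI, against 0.918% and 1.26% of such cells with a UMI in AKI.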
